A study of Mus musculus with 36 samples.

Results

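The lysosome was examined through 32 mouse genes, picked by name, that encode proteases, other acid hydrolases and membrane proteins of this organelle. All 32 were found by symbol among the 54532 Ensembl gene IDs of a deposited table of read counts, and 31 passed the filter on low counts. The exception was Ctse. The genes were sorted into 7 classes by role. They were 5 myeloid-rich cathepsins (Ctsc, Ctse, Ctsh, Ctss and Ctsz), 6 broadly expressed cathepsins with legumain (Ctsa, Ctsb, Ctsd, Ctsf, Ctsl and Lgmn), 2 membrane proteins of phagocytes (Cd68 and Gpnmb), 4 general membrane proteins (Lamp1, Lamp2, Cd63 and Npc1), 7 glycosidases (Hexa, Gaa, Gla, Glb1, Gusb, Manba and Neu1), 1 tagging enzyme (Gnptab) and 7 genes of lipid breakdown and neuronal storage disease (Psap, Grn, Tpp1, Ppt1, Lipa, Asah1 and Smpd1).

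RNA-seq was made from whole brains of wild-type C57BL/6 mice at day 19, the peak of experimental autoimmune encephalomyelitis (EAE), an induced model of inflammatory demyelination. The series asks what daily oral farnesol does to the brain transcriptome in this disease. The naive group held 8 healthy mice. The untreated EAE group held 9 mice without gavage, the vehicle EAE group 9 mice gavaged with corn oil, and the farnesol EAE group 10 mice gavaged with 100 mg of trans, trans-farnesol per kg per day in corn oil. All EAE groups shared an injection of the myelin peptide MOG35-55 in complete Freund's adjuvant together with Pertussis toxin, so a comparison with naive brain covers disease, adjuvant and toxin at once. For vehicle EAE it also covers gavage and corn oil, and for farnesol EAE gavage, corn oil and farnesol. The labels give no age or sex and do not state that each replicate is a separate animal. The p-values measure the spread between these samples.

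Lysosomes degrade proteins, sugars and lipids that reach them by endocytosis, phagocytosis or autophagy. Their soluble enzymes are made as precursors, marked with mannose 6-phosphate in the Golgi and activated in the acid lumen, which a proton pump maintains behind a coat of glycosylated membrane proteins. Every brain cell has lysosomes, and loss of single hydrolases causes storage diseases of neurons, while microglia and invading macrophages carry a further set of cathepsins used in phagocytosis and antigen presentation.

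Many general lysosomal genes carry the E-box CACGTG near their start, the core of the element read by the transcription factor TFEB and its relatives. Windows of 300 bases, from 250 before to 50 after the annotated start, were matched in RefSeq (GRCm38.p6) for 27 of the 32 genes. These 27 genes had 30 windows, and a gene was counted if any of its windows held the motif. CACGTG, which is its own reverse complement, was held by 9 of the 27 genes (33.3%). Counted per window and not per gene, 7.2% of all 32851 windows held it. Among tested genes with a window, 1402 held CACGTG and 11532 did not. By class it was found in 5 of 5 broad cathepsins, 3 of 7 glycosidases and 1 of 3 general membrane genes, and in 0 of 6 genes of lipid breakdown and storage, 0 of 1 tagging enzyme, 0 of 3 myeloid-rich cathepsins and 0 of 2 phagocyte membrane genes with a window. Some general classes lacked it just as the myeloid ones did. The longer GTCACGTG, which contains CACGTG, was found on either strand in 6 of the 27 genes (22.2%) and in 2.2% of all windows. These stretches upstream of the start are shown as general genes that carry the motif, with each CACGTG in capitals: Lamp1 (chr8:13159061-13159160, plus strand) has 4 copies within 100 bases, and Glb1 (chr9:114400978-114401075) and Ctsf (chr19:4855045-4855129), both on the plus strand, have 1 each.
Lamp1: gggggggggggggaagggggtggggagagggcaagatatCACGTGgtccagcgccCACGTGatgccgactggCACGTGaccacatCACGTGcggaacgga
Glb1: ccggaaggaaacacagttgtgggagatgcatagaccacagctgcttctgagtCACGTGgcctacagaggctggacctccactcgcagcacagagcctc
Ctsf: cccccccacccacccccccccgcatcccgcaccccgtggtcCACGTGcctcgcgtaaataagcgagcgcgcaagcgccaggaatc

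Stretches of 4 genes of the myeloid classes, which rose in each EAE group, are shown for comparison. Capitals mark GAGGAA or its reverse complement TTCCTC, the core of sites bound by ETS factors such as the myeloid factor PU.1, searched on both strands. The stretches are Ctss (chr3:95526586-95526785, plus strand), Ctsc (chr7:88277885-88278084, plus strand), Cd68 (chr11:69666171-69666420, minus strand) and Gpnmb (chr6:49036318-49036517, plus strand).
Ctss: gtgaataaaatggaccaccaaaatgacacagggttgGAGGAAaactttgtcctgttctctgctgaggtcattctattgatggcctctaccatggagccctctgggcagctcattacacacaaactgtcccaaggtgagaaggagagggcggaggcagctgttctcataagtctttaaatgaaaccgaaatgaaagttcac
Ctsc: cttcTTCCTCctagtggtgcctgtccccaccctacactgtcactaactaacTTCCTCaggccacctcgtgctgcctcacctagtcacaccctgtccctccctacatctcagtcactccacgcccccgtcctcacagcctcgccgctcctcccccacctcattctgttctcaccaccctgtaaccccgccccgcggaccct
Cd68: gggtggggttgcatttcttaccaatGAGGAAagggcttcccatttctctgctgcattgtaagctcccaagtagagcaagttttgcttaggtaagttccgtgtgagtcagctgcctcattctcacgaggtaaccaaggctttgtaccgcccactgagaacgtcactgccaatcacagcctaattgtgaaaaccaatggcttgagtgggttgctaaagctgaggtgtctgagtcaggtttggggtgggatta
Gpnmb: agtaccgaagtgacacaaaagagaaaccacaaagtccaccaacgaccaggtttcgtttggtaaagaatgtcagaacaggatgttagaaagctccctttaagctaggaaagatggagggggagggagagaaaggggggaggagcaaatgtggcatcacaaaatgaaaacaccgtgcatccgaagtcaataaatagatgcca
GAGGAA matched in 28.3% of all windows and, counted per gene, in 13 of 27 members (48.1%). It did not divide myeloid from general genes, with matches in 2 of 3 myeloid-rich cathepsins, 1 of 2 phagocyte membrane genes, 4 of 6 lipid and storage genes, 2 of 3 general membrane genes, 4 of 7 glycosidases, 0 of 1 tagging enzyme and 0 of 5 broad cathepsins. Gla and Glb1 held both CACGTG and GAGGAA. Ctsz, Gpnmb, Hexa, Neu1, Gnptab, Tpp1 and Ppt1 held neither. These are letter matches in a fixed window and not measured binding.

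Libraries held 14.71 to 24.21 M counted reads. They fell into separate sets by the ribosomal RNA gene CT010467.1, which stood at 7464 to 10710 counts per M reads (CPM) in all 8 naive and 5091 to 17690 in 7 farnesol libraries (numbers 4 to 10), but at 1284 to 2784 CPM in the 9 untreated, the 9 vehicle and 3 farnesol libraries (numbers 1 to 3). The labels name no batch. For untreated and vehicle brains, disease and library set cannot be told apart, and only the 7 farnesol brains give a comparison with naive brain inside 1 set. That comparison covers gavage, corn oil and farnesol as well as disease. The gene Sbp, which encodes spermine-binding protein, exceeded 1 CPM in untreated libraries 1 to 5 and vehicle libraries 3 to 5 only. In whole tissue, more cells of a type and more RNA per cell cannot be told apart.

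In naive brain the general genes dominated. Per kb of exon, which allows genes to be ranked, Psap, the precursor of the saposins that present sphingolipids to their hydrolases, stood highest at 648 ± 35.3 CPM per kb (SD, n = 8). It was followed by Lamp1 at 135 ± 10.1 and Ctsb at 105 ± 7.4 CPM per kb, while Ctsd (91.3 ± 6.37) and Gaa (87.6 ± 6.73) lay within each other's spread. Ctss was the only myeloid-rich cathepsin in the upper 8, at 42.2 ± 3.36 CPM per kb. At the other end stood Ctsh (2.5 ± 0.258), the glycosidase Manba (2.08 ± 0.217), Ctsc (1.78 ± 0.194), Gpnmb (0.579 ± 0.0663) and Ctse (0.0386 ± 0.0317). From rank 13 to rank 20 (Cd63 to Gnptab) every neighbour pair overlapped within 1 SD.

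The disease comparison set these genes in EAE brain against naive brain, and the calls are described by class. The classes were set with results known, so their division is a description and not a test. All 4 tested myeloid-rich cathepsins and both phagocyte membrane genes rose in each EAE group, by 0.55 to 1.85 on the log2 scale. Of the other 25 members, 4 rose and 3 fell in untreated, 2 rose and 4 fell in vehicle, and 2 rose and 4 fell in farnesol EAE, and none of these 25 rose by more than 0.68. The classes met at their edges. Grn, of the lipid and storage class, rose by 0.67, 0.68 and 0.60, more than the myeloid-rich Ctsz (0.66, 0.63 and 0.55). Over all 31 tested members, 10 rose and 3 fell in untreated EAE (edgeR quasi-likelihood test, Benjamini-Hochberg adjusted p below 0.05), where 13.6% of all 18438 tested genes rose and 11.3% fell. In vehicle EAE 8 rose and 4 fell, with 16.3% and 15.2% of all genes doing so, and in farnesol EAE 8 rose and 4 fell, with 17.9% and 16.3%. The 3 comparisons share the same 8 naive libraries.

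**Figure D1:**
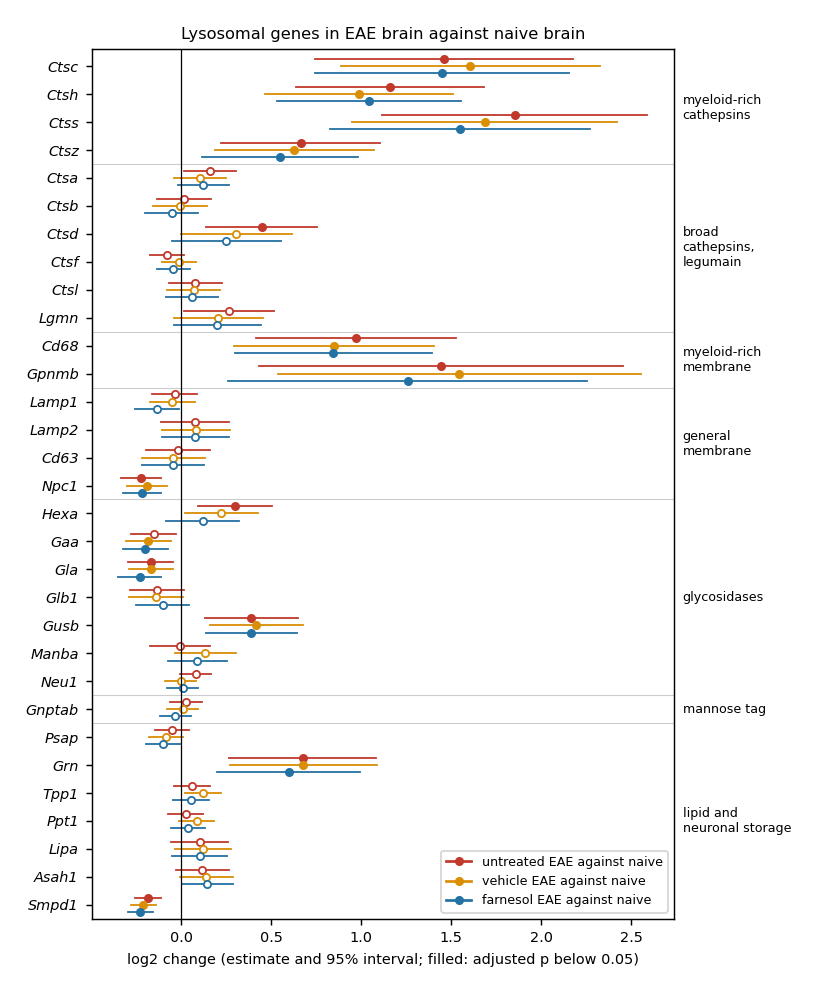
Log2 change against naive brain (x axis, estimate with 95% interval) of the 31 tested lysosomal genes (rows, grouped by class) in untreated, vehicle and farnesol EAE, with filled points where the adjusted p was below 0.05. The myeloid-rich cathepsins, Cd68 and Gpnmb lie right of 0.5 in all 3 groups, and most other genes lie near 0.

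Ctss encodes cathepsin S, which trims the invariant chain so that MHC class II molecules can load peptides. Its gene (ENSMUSG00000038642, GRCm38, chromosome 3, 95526786 to 95556403, plus strand) ranged from 52.6 to 65.2 CPM in naive brain with a median of 56.0. It ranged from 85.2 to 353 CPM in untreated EAE (median 188), from 58.8 to 515 in vehicle EAE (median 120) and from 76.7 to 382 in farnesol EAE (median 140). Every untreated and every farnesol brain lay above every naive brain, and 8 of 9 vehicle brains did. The log2 change was 1.85 ± 0.36 (SE, 3.61-fold, adjusted p = 0.000268) in untreated, 1.69 ± 0.36 (3.22-fold, adjusted p = 0.000522) in vehicle and 1.55 ± 0.36 (2.92-fold, adjusted p = 0.00101) in farnesol EAE. Ctss showed the largest estimate of all 31 tested members in untreated, vehicle and farnesol EAE alike.

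Ctsc, the dipeptidyl peptidase that activates the granule serine proteases of leukocytes, behaved alike. Ctsc (ENSMUSG00000030560) lies on chromosome 7, from 88278085 to 88310888 on the plus strand. Its naive level was 9.28 to 12.1 CPM (median 9.78). It reached 14.2 to 43.4 CPM in untreated (median 25.8), 11.7 to 92.9 in vehicle (median 17.5) and 12.7 to 67.2 in farnesol EAE (median 21.9). All 9 untreated, 8 of 9 vehicle and all 10 farnesol brains were above the naive range. Ctsc rose by 1.46 ± 0.35 (adjusted p = 0.00226), 1.61 ± 0.35 (adjusted p = 0.000668) and 1.45 ± 0.35 (adjusted p = 0.00153) on the log2 scale. Ctsh, an aminopeptidase, ranged from 9.79 to 12.9 CPM in naive brain (median 11.5) and had medians of 23.6, 16.8 and 20.5 CPM in untreated, vehicle and farnesol EAE. The naive range of Ctsh was exceeded by 9 of 9, 8 of 9 and 10 of 10 brains, with log2 changes of 1.16 ± 0.26 (adjusted p = 0.000946), 0.99 ± 0.26 (adjusted p = 0.0033) and 1.04 ± 0.25 (adjusted p = 0.00167).

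Ctsz, a carboxypeptidase, changed less. Its naive range was 34.7 to 42.7 CPM, against 39.8 to 89.0 in untreated, 34.1 to 140 in vehicle and 36.4 to 96.1 in farnesol EAE, so the groups overlapped. Ctsz rose by 0.66 ± 0.22 (adjusted p = 0.0226), 0.63 ± 0.22 (adjusted p = 0.0249) and 0.55 ± 0.21 (adjusted p = 0.0438). These calls were lost without single libraries: untreated 9 (0.58, adjusted p = 0.0554), vehicle 4 (0.38, adjusted p = 0.122), and, in the farnesol comparison, farnesol 1, 3, 4 or 9 or any 1 naive library (0.44 to 0.57). The gene span of Ctsz overlaps that of Nelfcd on the opposite strand, at 42.2 CPM on average, and counting by strand is not given in the sources used here. Overlaps were read from gene starts and ends and not from exons. Ctse, an aspartic protease of immune cells, averaged 0.122 CPM in naive and 0.213, 0.211 and 0.231 CPM in untreated, vehicle and farnesol EAE and was not tested.

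Among membrane proteins, the glycoproteins of phagocytes stood apart from the general ones. Cd68 (macrosialin) ranged from 5.17 to 7.74 CPM in naive brain, 7.92 to 19.8 in untreated, 6.02 to 30.7 in vehicle and 6.27 to 22.1 in farnesol EAE. All 9 untreated, 5 of 9 vehicle and 8 of 10 farnesol brains exceeded the naive range, and Cd68 rose by 0.97 ± 0.27 (adjusted p = 0.00823), 0.85 ± 0.27 (adjusted p = 0.0165) and 0.84 ± 0.27 (adjusted p = 0.0145). Gpnmb, a glycoprotein of lipid-laden phagocytes, went from 3.10 to 4.41 CPM in naive to 6.49 to 22.5 in untreated, 2.61 to 54.7 in vehicle and 2.82 to 22.1 in farnesol EAE. Only the untreated range cleared the naive one. Gpnmb rose by 1.44 ± 0.50 (adjusted p = 0.0303), 1.55 ± 0.50 (adjusted p = 0.0162) and 1.26 ± 0.49 (adjusted p = 0.0444). Without vehicle library 4 neither gene passed in vehicle EAE (Cd68 0.55, adjusted p = 0.0843, and Gpnmb 0.57, adjusted p = 0.265). Gpnmb also failed in untreated EAE without library 6 (1.21) or 9 (1.39), and in farnesol EAE without farnesol 1, 3, 4 or 9 or any 1 naive library (1.00 to 1.29).

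**Figure D2:**
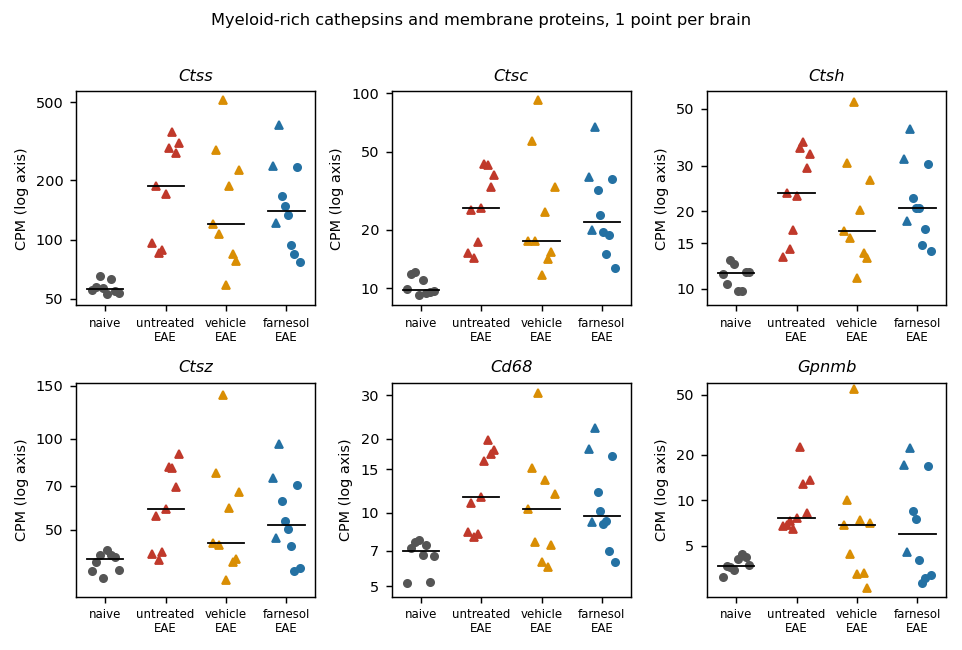
CPM (log axis) of myeloid-rich lysosomal genes in each brain, by group, with a bar at the group median, circles for libraries with high CT010467.1 and triangles for libraries with low CT010467.1. Ctss, Ctsc and Ctsh of all 9 untreated and all 10 farnesol brains lie above the 8 naive brains, with a wide spread inside each EAE group.

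Members that lay wholly above naive brain were Ctsc, Ctsh, Ctss, Cd68 and Gpnmb in untreated EAE (5 of 31, against 2.62% of all tested genes) and Ctsc, Ctsh and Ctss in farnesol EAE (3 of 31, against 3.23%). In vehicle EAE no member did, against 3.79% of all genes.

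Within the EAE groups the myeloid-rich cathepsins varied far more than the general genes. The median SD of log2 CPM over the 4 tested cathepsins was 0.13 in naive brain and 0.59, 0.84 and 0.60 in untreated, vehicle and farnesol EAE. Over the 25 members outside the myeloid classes it was 0.09 in naive brain and 0.15, 0.17 and 0.15 in EAE, so these genes too were more variable in each EAE group than in naive brain. Over all tested genes it was 0.15 in naive brain and 0.19, 0.16 and 0.19 in EAE, which is above the general members in naive, untreated and farnesol brain. Untreated brains split along Sbp, and not in the myeloid classes alone. Ctss was 85.2 to 188 CPM in the 5 libraries with Sbp above 1 CPM and 276 to 353 in the other 4. Ctsc was 14.2 to 25.8 against 32.9 to 43.4 CPM. Among general genes, Ctsb was 558 to 637 against 675 to 748 CPM and Ctsd 213 to 260 against 339 to 379. Psap was 1572 to 1684 against 1712 to 1853 CPM. Other general genes overlapped, such as Gaa (325.5 to 439 against 335 to 381 CPM), Smpd1 (101 to 114 against 100.0 to 111), Npc1 and Ctsf. Without the Sbp libraries, Ctss rose by 2.43 in untreated EAE and the count of members that rose went from 10 to 15, adding Lgmn (0.53), Ctsa (0.31), Lamp2 (0.27), Asah1 (0.25) and Tpp1 (0.19). In that fit 2092 of all 19063 tested genes rose and 1469 fell in untreated EAE, against 2505 and 2081 of 18438 over all libraries. Members lower stayed at 3 in number, with Gla no longer passing (-0.13, adjusted p = 0.237) and Gaa passing (-0.25), and Cst3, Scarb2, Rragd and Gnptg, genes of the further lists described last, lost their untreated calls (-0.05, -0.06, -0.23 and 0.15). Without the Sbp libraries Gpnmb (0.72, adjusted p = 0.201) and Gla (-0.17, adjusted p = 0.066) did not pass in vehicle EAE, nor did Nagpa (0.23) and Rraga (-0.11), while Glb1 did (-0.21). Psap (-0.10), Lamp1 (-0.14) and Atp6v0d2 (adjusted p = 0.0326) then passed in farnesol EAE. In vehicle EAE the 3 Sbp libraries had 58.8, 106 and 515 CPM of Ctss, so both low and high values occurred. The part of Sbp in these levels was not tested.

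Markers of other cells moved beside the myeloid-rich cathepsins. Of 12 monocyte and macrophage markers, 9, 10 and 10 rose in untreated, vehicle and farnesol EAE, and their summed level was 121 to 133 CPM in naive brain against 159 to 344, 157 to 658 and 172 to 393 CPM. All 9 tested neutrophil markers rose in each EAE group, from sums of 1.70 to 4.13 CPM to 11.3 to 65.6, 26.6 to 65.9 and 24 to 73.4 CPM. Of 7 tested T cell markers 6, 6 and 4 rose, with sums of 6.17 to 9.63 CPM in naive brain and 7.67 to 19.5, 8.17 to 25.5 and 7.90 to 23.3 CPM in EAE. Of 6 tested dendritic cell markers 4, 3 and 3 rose, with sums of 24.9 to 48.6 CPM in naive brain and 31.2 to 71.2, 45.3 to 76.4 and 28.9 to 65.8 CPM in EAE, and of 4 tested B cell markers 2, 2 and 0 rose. The sums of these lymphoid and dendritic lists overlapped between naive and EAE brain. Homeostatic microglia markers ranged from 269 to 314 CPM in sum in naive brain and from 223 to 494, 210 to 486 and 245 to 465 in EAE, with 3, 0 and 0 of 10 higher and 0, 2 and 0 lower. No marker of these lists was at 0 in all libraries of a group. Vehicle brain 4, which was highest in Ctss, also had the highest monocyte and macrophage sum (658 CPM). The part of each cell type in the cathepsin levels was not tested.

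Among the broad cathepsins, Ctsb, Ctsl, Ctsf and Ctsa were not called in any EAE group in the fit over all libraries. Ctsb, a cysteine protease found in most cells, ranged from 565 to 683 CPM in naive brain, 558 to 748 in untreated, 541 to 868 in vehicle and 541 to 743 in farnesol EAE. The ranges overlapped almost fully, with log2 changes of 0.02 ± 0.07, -0.01 ± 0.07 and -0.05 ± 0.07 (adjusted p = 0.906, 0.962 and 0.607). Its 95% intervals reached from -0.20 to 0.17 over the 3 groups. Ctsl (0.08, 0.07 and 0.06) and Ctsf (-0.08, -0.01 and -0.04) also had small estimates that did not pass. Ctsa, the carboxypeptidase that protects beta-galactosidase and sialidase, had 0.16, 0.10 and 0.12 (adjusted p = 0.0953, 0.275 and 0.176). The gene spans of Ctsa and Ctsb overlap those of Pltp (67.9 CPM) and Fdft1 (83.5 CPM) on the opposite strand.

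Ctsd and Lgmn were in between. Ctsd, the main aspartic protease of lysosomes, ranged from 186 to 235 CPM in naive brain (median 218), 213 to 379 in untreated (median 260), 181 to 468 in vehicle (median 228) and 193 to 382 in farnesol EAE (median 236). It rose in untreated EAE by 0.45 ± 0.15 (adjusted p = 0.0278), with 6 of 9 brains above the naive range, while vehicle (0.31 ± 0.15, adjusted p = 0.121) and farnesol EAE (0.25 ± 0.15, adjusted p = 0.192) did not pass. The untreated call for Ctsd was lost without naive 4 or untreated 6, 7 or 9 (0.39 to 0.42). Lgmn, the asparaginyl endopeptidase that processes cathepsins, had a naive range of 114 to 136 CPM and log2 changes of 0.27 ± 0.12, 0.21 ± 0.12 and 0.20 ± 0.12 (adjusted p = 0.109, 0.203 and 0.2).

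The balance between both protease classes was read in each brain as the mean log2 CPM of the 5 myeloid-rich cathepsins minus that of the 6 broad ones, with 0.5 CPM added. It averaged -3.71 in naive brain (-3.83 to -3.54), -2.89 in untreated (-3.36 to -2.48), -2.99 in vehicle (-3.48 to -2.0) and -2.94 in farnesol EAE (-3.38 to -2.32). Every EAE brain lay above every naive brain. The shift against naive brain was 0.82, 0.72 and 0.76, and the classes' median log2 changes were 1.31, 1.30 and 1.25 for the 4 tested myeloid-rich cathepsins against 0.12, 0.09 and 0.09 for the broad ones, with -0.01, 0.00 and 0.01 over all genes. No p-value is given for this balance because the classes were set with results known. Within the high CT010467.1 set the farnesol shift was 0.63, and without vehicle brain 4 the vehicle shift was 0.59. As a share of the CPM of all 32 genes, the myeloid-rich cathepsins made up 2.44% ± 0.0995 (SD, n = 8) in naive brain, 6.13% ± 2.24 (n = 9) in untreated, 5.57% ± 2.91 (n = 9) in vehicle and 5.49% ± 2.09 (n = 10) in farnesol EAE. The ratio of Ctss to Ctsd alone went from -1.91 ± 0.11 on the log2 scale in naive brain to -0.66 ± 0.52, -0.80 ± 0.58 and -0.76 ± 0.43.

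**Figure D3:**
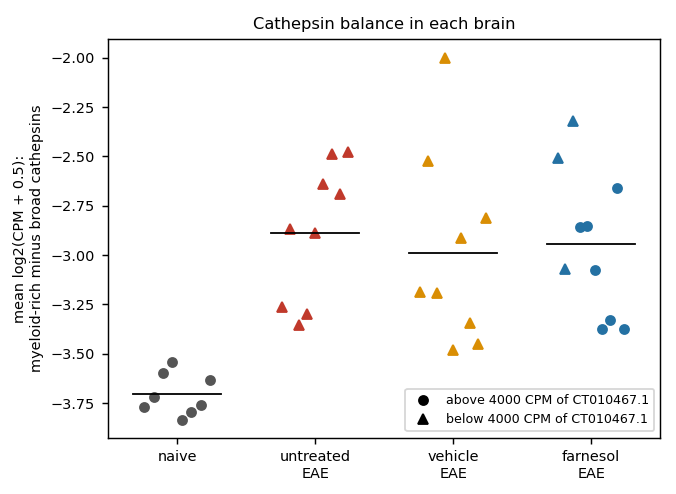
Mean log2 CPM of 5 myeloid-rich minus 6 broad cathepsins (y axis) in each brain by group, with a bar at the group mean, circles for libraries with high CT010467.1 and triangles for low. All 28 EAE brains lie above the 8 naive brains, which end at -3.54.

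Of the 4 general membrane proteins, Npc1 alone was called in the fit over all libraries. Npc1, which moves cholesterol out of the lysosome, ranged from 81.9 to 103 CPM in naive brain (median 87.6), 69.1 to 91.2 in untreated (median 74.0), 71.8 to 82.8 in vehicle (median 79.9) and 67.2 to 91.2 in farnesol EAE (median 76.3). The groups overlapped, but 7 of 9, 6 of 9 and 8 of 10 EAE brains lay below every naive brain. Npc1 fell by 0.22 ± 0.05 (adjusted p = 0.0023), 0.19 ± 0.05 (adjusted p = 0.00642) and 0.22 ± 0.05 (adjusted p = 0.00164) on the log2 scale. Its gene span overlaps that of Rmc1 on the opposite strand, at 27.0 CPM. Lamp1, the most abundant lysosomal membrane protein, had a naive range of 329 to 401 CPM and log2 values of -0.04 ± 0.06, -0.05 ± 0.06 and -0.14 ± 0.06 (adjusted p = 0.721, 0.586 and 0.0757), and it passed in farnesol EAE without farnesol 3 (-0.16) or vehicle 4 (-0.13). Lamp2, needed for fusion of autophagosomes, had 0.07, 0.08 and 0.08, and the tetraspanin Cd63 had -0.02, -0.04 and -0.05, with no call.

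The glycosidases moved in both directions. Gusb (beta-glucuronidase) ranged from 14.0 to 18.9 CPM in naive brain and had medians of 21.2, 19.5 and 21.9 CPM in untreated, vehicle and farnesol EAE against 16.7 in naive. It rose by 0.39 ± 0.13 (adjusted p = 0.0218), 0.42 ± 0.13 (adjusted p = 0.011) and 0.39 ± 0.12 (adjusted p = 0.0151), with overlap. Hexa, the alpha subunit of the hexosaminidase that degrades GM2 ganglioside, rose in untreated EAE (0.30 ± 0.10, adjusted p = 0.0261), where 7 of 9 brains exceeded the naive range of 44.2 to 55.2 CPM. The Hexa values in vehicle (0.22 ± 0.10, adjusted p = 0.0879) and farnesol EAE (0.12 ± 0.10, adjusted p = 0.374) did not pass, and the untreated call was lost without naive 8 (0.27, adjusted p = 0.0567), while the vehicle value passed without vehicle 7 (0.26).

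Gla, alpha-galactosidase A, fell from a naive range of 14.6 to 16.9 CPM by 0.17 ± 0.06 (adjusted p = 0.0367), 0.17 ± 0.06 (adjusted p = 0.0312) and 0.23 ± 0.06 (adjusted p = 0.00296). Below every naive brain were 8 of 9 untreated, 7 of 9 vehicle and 9 of 10 farnesol brains. Gaa, which frees glucose from glycogen, fell in vehicle (by 0.18 ± 0.06, adjusted p = 0.0246) and farnesol EAE (by 0.20 ± 0.06, adjusted p = 0.0114), and its untreated value of -0.15 ± 0.06 did not pass (adjusted p = 0.0696). The Gla calls were lost without naive 5, 6, 7 or 8 or untreated 3, 4, 5 or 9 in untreated EAE (-0.17 to -0.15), and without naive 6, 7 or 8 or vehicle 3, 5 or 6 in vehicle EAE (-0.16 to -0.15). The vehicle call of Gaa was lost without naive 4 or 6 or vehicle 1 or 6 (-0.16 to -0.15), and its untreated value passed without naive 2 or untreated 1, 2 or 3 (-0.18 to -0.17). Glb1 (-0.14, -0.14 and -0.10), Manba (-0.01, 0.13 and 0.09), Neu1 (0.08, 0.00 and 0.01) and the tagging enzyme Gnptab (0.03, 0.01 and -0.03) were not called. The gene span of Glb1 overlaps that of Tmppe on the same strand, at 7.65 CPM.

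Among genes of lipid breakdown and neuronal storage disease, Smpd1 and Grn went in opposite directions. Smpd1, acid sphingomyelinase (ENSMUSG00000037049, chromosome 7, 105554360 to 105558389, plus strand), had the smallest p-values of any member, although the change was small. Its naive range was 111 to 135 CPM (median 118), against 100.0 to 114 in untreated (median 105), 101 to 108 in vehicle (median 104) and 97.4 to 112 in farnesol EAE (median 103). All 9 vehicle brains, 8 of 9 untreated and 9 of 10 farnesol brains lay below every naive brain, and complete separation downwards was seen in 3.45% of all genes in vehicle EAE. Smpd1 fell by 0.18 ± 0.03 (adjusted p = 0.000156), 0.21 ± 0.03 (adjusted p = 2.2e-05) and 0.23 ± 0.03 (adjusted p = 4.0e-06) on the log2 scale.

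Grn encodes progranulin, a secreted and lysosomal protein strongly expressed by microglia. It ranged from 50.6 to 68.2 CPM in naive brain, 57.4 to 131 in untreated, 59.8 to 185 in vehicle and 56.3 to 156 in farnesol EAE. It rose by 0.67 ± 0.20 (adjusted p = 0.0117), 0.68 ± 0.20 (adjusted p = 0.00877) and 0.60 ± 0.20 (adjusted p = 0.0174), with 7 of 9, 6 of 9 and 8 of 10 brains above the naive range. The farnesol call for Grn was lost without farnesol 3 (0.47, adjusted p = 0.0515), and Grn overlaps Fam171a2 on the opposite strand at 108 CPM. Psap, the most abundant member, had -0.05, -0.08 and -0.10 (adjusted p = 0.464, 0.178 and 0.0837). Tpp1 and Ppt1, mutated in neuronal ceroid lipofuscinosis, had log2 values of 0.03 to 0.12, as did the acid lipase Lipa (0.10 to 0.12), and the acid ceramidase Asah1 had 0.12 to 0.15, none of them called. The gene span of Ppt1 overlaps that of Cap1 on the opposite strand, at 236 CPM. Without vehicle library 4, Psap fell in vehicle EAE (-0.12, adjusted p = 0.028) and so did Glb1 (-0.21, adjusted p = 0.0101), while Psap in farnesol EAE reached -0.10 (adjusted p = 0.0438). Tpp1 passed in vehicle EAE without vehicle 5, naive 7 or farnesol 3 (0.12 to 0.14), and Asah1 in farnesol EAE without farnesol 7 (0.18).

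**Figure D4:**
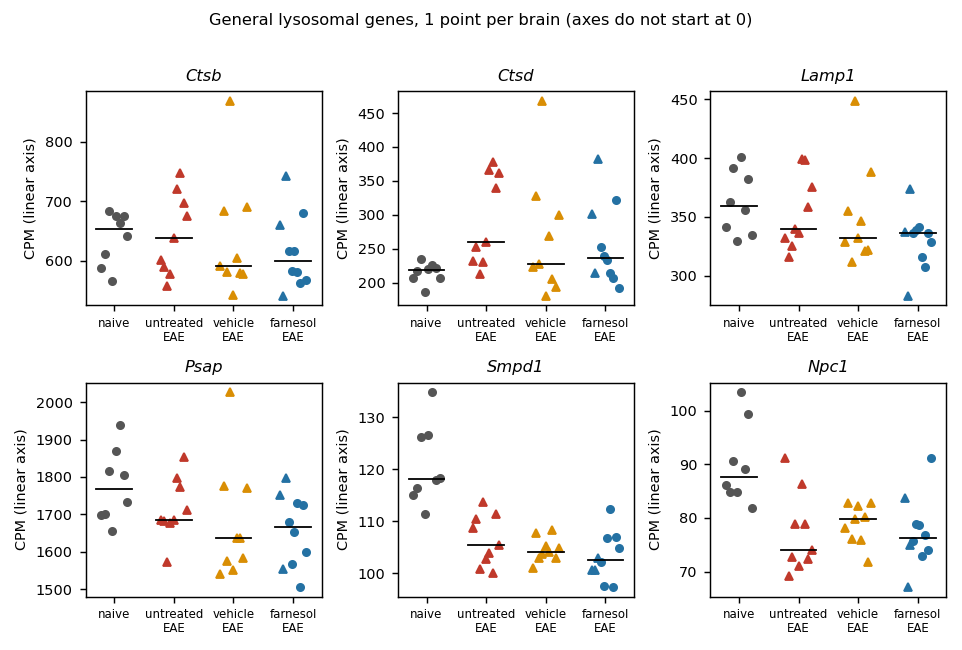
CPM (linear axes that do not start at 0) of 6 general lysosomal genes in each brain by group, with a bar at the group median, circles for libraries with high CT010467.1 and triangles for low. Ctsb, Lamp1 and Psap overlap between naive and EAE brain, vehicle brain 4 stands highest in 4 panels, and Smpd1 and Npc1 sit lower in most EAE brains.

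Inside 1 library set the same division between classes was seen. In the 7 farnesol brains with high CT010467.1 against the 8 naive brains, 8 of 31 members rose and 5 fell, against 14.9% and 13.3% of the 17283 genes tested. Ctss rose by 1.23, Ctsc by 1.13, Ctsh by 0.84, Cd68 by 0.60, Gpnmb by 0.81, Grn by 0.42, Ctsz by 0.38 and Gusb by 0.31. Gla fell by 0.25, Smpd1 by 0.21, Npc1 by 0.19, Gaa by 0.19 and Lamp1 by 0.13. The 3 farnesol brains of the low set had 121 to 382 CPM of Ctss and the 7 of the high set 76.7 to 233. With the set as a term in the fit over all 36 libraries, no member passed in untreated or vehicle EAE, where 0.542% and 1.96% of all genes rose and 0.407% and 1.75% fell. Ctss then stood at 0.97 ± 0.59 and 0.80 ± 0.59 there. In farnesol EAE Ctss (1.22), Ctsc (1.12) and Ctsh (0.83) still rose and Smpd1, Gla, Npc1 and Gaa still fell, where 13.6% of all genes rose and 12.7% fell.

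The farnesol comparison asked whether treated brains differed from vehicle brains, and no member passed. The same held for farnesol against untreated and for vehicle against untreated EAE. The share of all tested genes called was 0.0922%, 1.87% and 0.0217% in these comparisons. No member had an unadjusted p below 0.05 in any of the 3 (0 of 31 in each, edgeR), and DESeq2 called 0 as well. Against vehicle, Ctss in farnesol EAE differed by -0.14 with a 95% interval of -0.80 to 0.52, Ctsc by -0.16 (-0.79 to 0.48), Ctsh by 0.06 (-0.42 to 0.53) and Ctsz by -0.08 (-0.49 to 0.33). Changes of either sign lie inside these intervals. They were narrower for some general genes, though not equally for all. Psap differed by -0.02 (-0.11 to 0.07), Smpd1 by -0.02 (-0.09 to 0.05), Lamp1 by -0.09 (-0.21 to 0.03) and Ctsb by -0.05 (-0.19 to 0.10). All adjusted p-values were 0.982 or above. Against untreated EAE, the lowest p was that of Hexa (-0.18, -0.37 to 0.01, adjusted p = 0.388), and Ctsd differed by -0.19 (-0.48 to 0.09). Between vehicle and untreated EAE the lowest p was that of Neu1 (-0.08, adjusted p = 0.608).

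**Figure D5:**
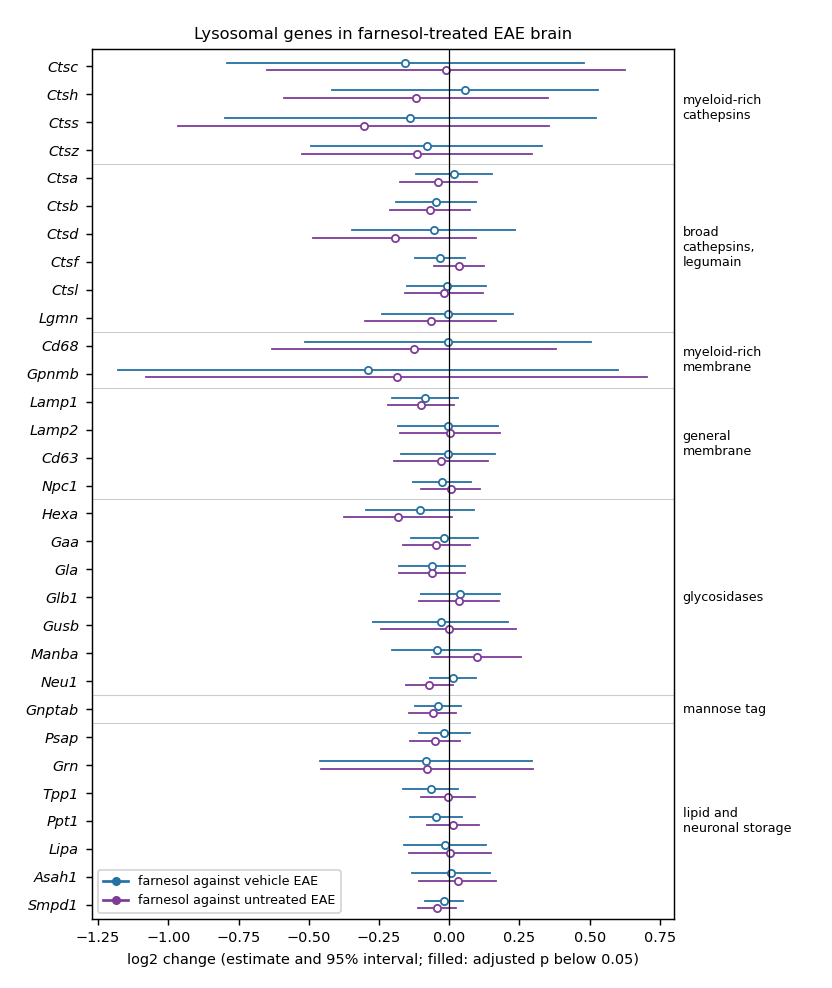
Log2 change (x axis, estimate with 95% interval) of the 31 tested lysosomal genes in farnesol EAE against vehicle EAE and against untreated EAE, with open points where the adjusted p was 0.05 or more. All intervals include 0, and those of the myeloid-rich cathepsins, Cd68 and Gpnmb are the widest.

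Most farnesol libraries differ in set from all vehicle libraries, and within the low set 3 farnesol brains faced 9 vehicle brains. There Ctss differed by 0.41 ± 0.53 (adjusted p = 0.841), Ctsc by 0.39 ± 0.51 and Ctsh by 0.45 ± 0.38, opposite in sign to the whole comparison for Ctss and Ctsc, and no member passed.

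Other lysosomal genes were read from 7 lists of 93 genes, of which 91 were tested. In untreated, vehicle and farnesol EAE, 15, 16 and 14 of them rose (16.5%, 17.6% and 15.4%) and 20, 28 and 26 fell (22%, 30.8% and 28.6%). Over all tested genes 13.6%, 16.3% and 17.9% rose, which is near the share of these lists, and 11.3%, 15.2% and 16.3% fell. The fall was most frequent among the 19 subunits and helpers of the proton pump (v-ATPase), where 10, 14 and 13 fell and 2, 2 and 1 rose, with a median log2 change of -0.12, -0.15 and -0.17. Atp6ap1, an accessory subunit, averaged 352 ± 15.4 CPM in naive brain (SD, n = 8) and 312 ± 13.2, 308 ± 8.39 and 300 ± 9.69 in EAE, with log2 changes of -0.18, -0.19 and -0.23 (adjusted p = 5.8e-05, 1.3e-05 and 5.0e-07). Atp6v0e2 (-0.25, -0.25 and -0.27), Atp6v0a1 (-0.13, -0.23 and -0.27) and Atp6v0d1 (-0.16, -0.21 and -0.23) fell in each group as well, the untreated call of Atp6v0a1 being lost without naive 6 or untreated 6 (-0.11). In the high set alone, 12 of 18 tested pump genes fell and 1 rose in farnesol EAE, and with the set as a term 0 of 19 fell in untreated and vehicle EAE and 13 in farnesol EAE. Neuron markers moved in the same direction, with 3, 5 and 6 of 6 lower and summed levels of 5905 to 6704 CPM in naive brain against 5109 to 6391, 4685 to 5580 and 4678 to 5995 in EAE. Of 6 astrocyte markers 2, 1 and 4 were lower and 1 was higher in each group, with median log2 changes of -0.12, -0.11 and -0.17. Of 6 oligodendrocyte markers 1, 2 and 2 were lower (medians -0.24, -0.16 and -0.14). Of 6 endothelial markers 2 were lower and 1 was higher in each group. The part of these cell types in the fall was not tested. Atp6v0d2, named after its values were seen, was called higher in untreated and vehicle EAE, with a mean of 0.00680 CPM in naive and 0.562, 0.432 and 0.111 CPM in untreated, vehicle and farnesol EAE.

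Of 24 other hydrolases, 4, 3 and 3 rose (16.7%, 12.5% and 12.5%) and 2 fell in each comparison (8.33%). The shares of all tested genes were 13.6%, 16.3% and 17.9% risen and 11.3%, 15.2% and 16.3% fallen, from which this short list differed by few genes. Arsb (-0.28, -0.31 and -0.34) and Ids (-0.21, -0.24 and -0.20), sulfatases that degrade glycosaminoglycans, fell, while Idua (0.24, 0.34 and 0.28) of the same pathway and the mannosidase Man2b1 (0.50, 0.44 and 0.44) rose. Of 17 other membrane genes tested, 2, 4 and 3 rose (11.8%, 23.5% and 17.6%) and 3, 4 and 4 fell (17.6%, 23.5% and 23.5%). Over all tested genes 13.6%, 16.3% and 17.9% rose and 11.3%, 15.2% and 16.3% fell. Laptm4b (-0.25, -0.23 and -0.30) and Scarb2, the receptor that carries glucocerebrosidase (-0.15, -0.16 and -0.16), fell. Cln3 rose in vehicle (0.30) and farnesol EAE (0.29), and Lamp5 fell there (-0.29 and -0.25). Among the other cathepsins Ctsw, found in cytotoxic lymphocytes, rose by 1.46, 1.23 and 1.63 from 0.490 CPM, with the vehicle call lost without naive 1, 2, 4 or 7 or vehicle 2, 4 or 6 (1.03 to 1.20). Ctsk and Ctso were not called.

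Among 10 genes that tag and sort lysosomal enzymes, 3, 2 and 2 rose (30%, 20% and 20%) and 2, 3 and 3 fell (20%, 30% and 30%). Over all tested genes 13.6%, 16.3% and 17.9% rose and 11.3%, 15.2% and 16.3% fell, and lists this short differ from that by few genes. Nagpa (0.39, 0.29 and 0.28) and Gnptg (0.17, 0.22 and 0.20), which help to make the mannose 6-phosphate mark, rose, and the sorting receptor Sort1 (-0.15, -0.28 and -0.25) and the adaptor Ap1s1 (-0.23, -0.31 and -0.23) fell. In untreated EAE the call of Sort1 was lost without naive 4, 5, 6 or 8 or untreated 4, 6, 7 or 9 (-0.15 to -0.13), and that of Ap1s1 without untreated 6 or 9 (-0.20 and -0.21). Of 11 genes that control lysosome formation, 0, 1 and 1 rose (0%, 9.09% and 9.09%) and 2, 4 and 3 fell (18.2%, 36.4% and 27.3%). Mtor (-0.17, -0.20 and -0.17) and Rragd (-0.28, -0.22 and -0.24) fell in each group, Rraga fell in vehicle (-0.13) and farnesol EAE (-0.15), and Flcn rose in both (0.17 and 0.19). Tfeb, Tfe3 and Mitf themselves were not called. Members with a CACGTG window numbered 9, of which 1, 0 and 0 rose and 1, 2 and 2 fell, against 8, 7 and 7 risen and 1, 1 and 1 fallen of the 18 without. Over all tested genes with a window, 13.2%, 16.0% and 16.2% of 1402 with CACGTG rose and 12.6%, 16.8% and 20.3% fell. Of 11532 without it, 14.8%, 17.4% and 18.3% rose and 11.7%, 15.9% and 17.4% fell. The falls among members with CACGTG (11.1%, 22.2% and 22.2%) were near the share of all genes with it.

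Of 7 inhibitors of lysosomal and secreted proteases, 3 rose (42.9%) and 1 fell (14.3%) in each EAE group. Over all tested genes 13.6% to 17.9% rose and 11.3% to 16.3% fell. Cst7 (cystatin F), which inhibits Ctsc and its relatives inside immune cells, averaged 0.171 CPM in naive brain and 3.19, 3.57 and 2.34 CPM in untreated, vehicle and farnesol EAE (adjusted p = 0.00106, 0.000551 and 0.00239). Serpina3n rose by 1.54, 1.52 and 1.48, from 16.8 CPM, and Serpina3g by 2.09, 2.18 and 2.02. Cst3 (cystatin C), the abundant secreted inhibitor of cysteine cathepsins, fell by 0.19, 0.26 and 0.27 from 848 CPM, and the untreated call was lost without naive 2, 3, 4, 5, 6 or 7 or untreated 1, 2, 4, 5, 6 or 9 (-0.19 to -0.15). No gene of the 7 lists passed in farnesol against vehicle or in vehicle against untreated EAE.

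In farnesol against untreated EAE 1 of the 91 passed, where 1.87% of all genes did. This was the pump subunit Atp6v0c, named after its values were seen (-0.19, adjusted p = 0.0364). The call was lost without untreated 1, 2, 4, 5 or 8 or farnesol 1, 3, 5, 6 or 8 (-0.19 to -0.16), without the Sbp libraries (-0.10, adjusted p = 0.494), with the library set as a term (-0.25, adjusted p = 0.109) and with only the compared groups in the fit (-0.18, adjusted p = 0.161). Atp6v0a1 (-0.13, adjusted p = 0.0716) did not pass in the whole fit but did without untreated 6 or 7, farnesol 2 or 7, or the 3 libraries low in cerebellar genes. Atp6v0d2 (-2.28, adjusted p = 0.0572) passed without farnesol 4 or 9 or vehicle 4, 6, 7 or 9, and Lamp5 (-0.16, adjusted p = 0.195) without farnesol 2.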

How the data were processed

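Whole-brain total RNA was sequenced in 36 libraries (8 naive, 9 untreated EAE, 9 vehicle EAE and 10 farnesol EAE). The authors' deposited values are raw read counts per Ensembl gene. Reads were aligned with STAR 2.5 to mm10, per the submitters' processing notes, and Kallisto is also named in the labels' protocols. The counting tool, its annotation release and its strand setting were not given in the sources used here. Library totals of 14.71 to 24.21 M counts set the precision of each value. Symbols came from GENCODE M21, which named 54495 of 54532 IDs (99.99% of counts).

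Counts were filtered with filterByExpr (minimum count 10, total 15), scaled by TMM and tested with edgeR 4.0.16 (quasi-likelihood, R 4.3.3) in 1 fit over all 36 libraries with a mean per group. P-values were adjusted by Benjamini-Hochberg over 18438 genes, with a threshold of 0.05. CPM used TMM library sizes, exon length came from GENCODE, and 0.5 CPM was added before logs. The test was checked on simulated counts. Alternatives were DESeq2 1.42.0, limma 3.58.1 (voom with sample weights), RLE scaling, other filters, only the groups compared, a replicate block, the library set (above or below 4000 CPM of CT010467.1) as a term or alone, and leaving out single libraries, the Sbp libraries or the 3 libraries low in cerebellar genes.

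All 32 members are named, and of each other list up to 4 genes of smallest p. The members and lists were chosen with earlier results of these data known. Same-numbered samples did not deviate together (median correlation 0.036 over 51 pairs), so the numbers were not used as pairs.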

Additional observations from a re-analysis of the deposited data

Results flagged for a closer look

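Across 128 sets of values (32 genes in 4 groups), 16 had 1 brain far from the rest of its group by Dixon's test at the 95% level, which chance gives in about 1 of 20. Of these, 11 were vehicle brain 4. It held 515 CPM of Ctss (58.8 to 284 in the other vehicle brains), 53.1 of Ctsh (11 to 30.8), 140 of Ctsz (34.1 to 76.9) and 0.605 of Ctse (0.0442 to 0.254). The same brain held 30.7 CPM of Cd68 (6.02 to 15.2) and 54.7 of Gpnmb (2.61 to 10.1). General genes were high there too, with 868 CPM of Ctsb (541 to 691), 129 of Ctsa (90.2 to 110.0), 33.5 of Glb1 (21.2 to 25.2), 2027 of Psap (1541 to 1777) and 125 of Ppt1 (99.2 to 110.4). Its monocyte and macrophage marker sum was 658 CPM.

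Farnesol brain 3 was highest in Ctsc at 67.2 CPM (12.7 to 37.2 in the others), in Ctss at 382 (76.7 to 235) and in Lgmn at 205 (120 to 162). Untreated brain 6 had 22.5 CPM of Gpnmb (6.49 to 13.7), and naive brain 8 was lowest in Hexa at 44.2 CPM (50.3 to 55.2).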

How the results depend on the processing

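The counts of members called against naive brain kept within 1.5 times under DESeq2, RLE scaling, only the groups compared and a filter of 1 CPM in 8 libraries. With the library set as a term, members higher went from 10 to 0 in untreated, 8 to 0 in vehicle and 8 to 3 in farnesol EAE, and members lower from 3 to 0 in untreated and 4 to 0 in vehicle EAE. All naive and no untreated or vehicle libraries lie in the high set, so set and disease cannot be told apart there. The limma-voom fit gave 5 higher in vehicle EAE, where 3443 of all 18438 genes rose. Having no count filter gave 2 lower there, where 1981 of all 38924 genes fell. The cause was not tested. Leaving out 1 library gave 7 to 10 higher and 2 to 4 lower in untreated, 5 to 9 higher (5 without vehicle 4) and 2 to 6 lower (2 without vehicle 6 or naive 6) in vehicle, and 5 to 9 higher (5 without farnesol 3) and 4 to 6 lower in farnesol EAE. Without vehicle 4, 2648 of all 18390 tested genes rose in vehicle EAE. Without farnesol 3, 2989 of all 18376 rose in farnesol EAE. Without the 3 libraries low in cerebellar genes (naive 4, untreated 3 and farnesol 2), 10 were higher and 2 lower in untreated, 8 and 4 in vehicle, and 6 and 4 in farnesol EAE: Gla (-0.16, adjusted p = 0.0729), and among other listed genes Cst3 (-0.19) and Sort1 (-0.13), lost their untreated calls, and Ctsz (0.55, adjusted p = 0.057) and Gpnmb (1.32, adjusted p = 0.0541) their farnesol calls. Over all 18496 genes tested without these 3 libraries, the counts higher and lower were 2395 and 1839, 3027 and 2760, and 3242 and 2927. Without the Sbp libraries the member counts were 15 and 3, 7 and 4, and 8 and 6. Over all 19063 genes of that fit they were 2092 and 1469, 2501 and 2238, and 3407 and 3142. The replicate block gave 9 members higher and 3 lower, 6 and 4, and 6 and 4 in the same order, and 0 among EAE groups. Over all 18438 genes it gave 2368 and 1936, 2795 and 2636, and 3074 and 2840 against naive brain. No member reversed in a called direction. The cathepsin balance shifted by 0.66 to 0.75 with 2 CPM added and by 0.87 to 1.0 without Ctse. Depth limits Ctse, which could not be tested.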
